A study of Mus musculus with 8 samples.

Results

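Transcripts of red cells and platelets were examined in liver RNA from 8 mice that had undergone ligation of the bile duct, which stops bile flow and injures the liver. The set holds 8 of the 53816 gene IDs in the deposited tables, found by gene name. They are the alpha globins Hba-a1 and Hba-a2, the beta globins Hbb-bs and Hbb-bt, the haem synthesis enzyme Alas2, the anion exchanger Slc4a1, and the platelet chemokines Pf4 and Ppbp. All 8 mice had the surgery. In 4 of them the genotype was wild type (control replicates 1 to 4), and in 4 it was overexpression of Myc in liver sinusoidal endothelial cells, per the labels (Myc-labelled replicates 1 to 4). The driver of the overexpression, the age and sex of the mice, the time after surgery and any flushing of blood from the livers were not stated in the labels.

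Adult haemoglobin is a tetramer of alpha and beta chains, each holding a haem, and its mRNA persists in reticulocytes, the youngest circulating red cells, after the nucleus is lost. ALAS2 catalyses the first, rate-limiting step of haem synthesis in erythroid cells, while its relative ALAS1 serves other tissues, the liver above all. SLC4A1 (band 3) exchanges chloride and bicarbonate across the red cell membrane and anchors its skeleton. PF4 and PPBP are chemokines stored in platelet alpha granules, and their mRNAs are made in megakaryocytes and carried into platelets.

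Expression is given as TPM (transcript abundance scaled for gene length and library total), so that genes can be compared within a library. Depth, taken from the ratio of coverage to FPKM, was between 5.29 and 6.74 Gb of aligned bases in each library. Hepatocyte markers were present in all libraries, with albumin (Alb) at 63674 ± 23630 TPM (SD, n = 4) in controls and 51802 ± 14376 TPM in Myc-labelled livers. Myc itself ranged from 89.2 to 554 TPM in controls and from 25.6 to 356 TPM in the Myc-labelled libraries. It did not separate the groups, so every direction between groups rests on the labels. In whole tissue, fewer cells of a type and less RNA per cell cannot be told apart.

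The globin copies are near-identical, which bears on how reads are divided between them. The coding sequences of Hba-a1 and Hba-a2 are 429 bases each and differ at 1 base (C381T, counted from 1 at the start codon, Hba-a1's base first), an identity of 99.8%. Those of Hbb-bs and Hbb-bt are 444 bases each and also differ at 1 base (C417T, Hbb-bs's base first). The 60-base stretches that hold these differences are shown to let the copies be compared (GENCODE M21 transcripts, sense strand, the differing base in capitals).
Hba-a1, coding bases 351 to 410: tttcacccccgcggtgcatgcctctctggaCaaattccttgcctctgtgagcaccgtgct
Hba-a2, coding bases 351 to 410: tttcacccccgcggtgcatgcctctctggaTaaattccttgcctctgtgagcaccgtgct
Hbb-bs, coding bases 385 to 444: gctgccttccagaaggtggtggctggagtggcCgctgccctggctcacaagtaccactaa
Hbb-bt, coding bases 385 to 444: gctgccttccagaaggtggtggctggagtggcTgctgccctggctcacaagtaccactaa
Of all 100-base windows of the annotated transcripts, 56.5% of those in Hba-a1 also occurred in Hba-a2, and 74.5% of those in Hba-a2 in Hba-a1. For the beta globins, 62.6% of those in Hbb-bs also occurred in Hbb-bt, and 54.8% of those in Hbb-bt in Hbb-bs. A read from such a window does not tell the copies apart, so the level of a single copy is less certain than the sum of the pair.

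The sequences upstream of the red cell genes are shown as a description, and a tie to their levels was not tested. RefSeq promoter entries (GRCm38.p6) matched 7 of the 8 genes, all but Slc4a1. Capitals mark the core motif of GATA factors (GATAA) and the boxes known by their letters as the CACCC box, the CCAAT box and the TATA box (searched as TATAA). Both strands were searched. For each gene only the longest unbroken stretch without annotated untranslated bases is shown, so a motif counted below can lie outside it.
Hba-a2, chr11:32296242-32296488, plus strand: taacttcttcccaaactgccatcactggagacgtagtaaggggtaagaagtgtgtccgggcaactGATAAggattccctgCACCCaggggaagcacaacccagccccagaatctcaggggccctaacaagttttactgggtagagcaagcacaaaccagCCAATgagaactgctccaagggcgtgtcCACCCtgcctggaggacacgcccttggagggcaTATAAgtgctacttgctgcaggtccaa
Hbb-bs, chr7:103827929-103828011, minus strand: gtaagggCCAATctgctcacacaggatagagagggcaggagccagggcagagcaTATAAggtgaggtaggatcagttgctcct
Hbb-bt, chr7:103813997-103814173, minus strand: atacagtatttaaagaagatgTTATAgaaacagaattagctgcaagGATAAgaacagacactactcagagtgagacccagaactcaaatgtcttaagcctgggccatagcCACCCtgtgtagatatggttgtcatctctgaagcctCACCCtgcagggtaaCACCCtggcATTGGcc
Alas2, chrX:150547167-150547374, plus strand: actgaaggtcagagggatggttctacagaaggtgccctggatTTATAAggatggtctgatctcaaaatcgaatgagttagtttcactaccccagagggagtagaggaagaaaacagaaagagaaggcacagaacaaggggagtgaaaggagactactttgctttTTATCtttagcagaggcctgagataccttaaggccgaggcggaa
The entries of Hba-a1 and Hba-a2 were identical over 297 bases, so only that of Hba-a2 is shown. In the full 250 bases before the start, GATAA occurred 1 time in each of the 4 globins and in Alas2, and 0 times in Pf4 and Ppbp. CACCC occurred 1 to 3 times in each of the globins and in Alas2, and 0 times in Pf4 and Ppbp. CCAAT occurred 1 to 3 times in each globin, 2 times in Pf4, and 0 times in Alas2 and Ppbp. TATAA occurred 1 or 2 times in each globin, 2 times each in Alas2 and Ppbp, and 0 times in Pf4. The 2 matches in Alas2 overlap in TTATAA, 1 on each strand. GATAA was found in 22.6% of all 32851 promoter windows of that length, CACCC in 52.0%, CCAAT in 33.8% and TATAA in 22.8%. These matches describe letters only.

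The alpha globins were abundant and varied widely. Hba-a1 (ENSMUSG00000069919.7, chromosome 11, 32283511 to 32284465, plus strand, mm10) had 476, 199.5, 145 and 91.3 TPM in controls 1 to 4, in that order. The Myc-labelled livers, in the same order, had 199, 392, 309 and 389.8 TPM. The highest and the lowest of the 8 values were both in controls, and the groups overlapped. The neighbouring copy Hba-a2 (ENSMUSG00000069917.7, chromosome 11, 32296489 to 32297298, plus strand) stood at 393, 165, 117 and 80.9 TPM in controls. Its Myc-labelled values were 168, 326, 198 and 331 TPM. Control replicate 1 was again highest and control replicate 4 lowest.

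The beta globins showed the same order at their ends. Hbb-bs (ENSMUSG00000052305.6, chromosome 7, 103826534 to 103828096, minus strand) was the most abundant member, at 649, 259.6, 215 and 127 TPM in controls. In the Myc-labelled livers Hbb-bs stood at 257, 490.4, 339.6 and 629.7 TPM. Myc-labelled replicate 4 thus came close to control replicate 1. Hbb-bt (ENSMUSG00000073940.3, chromosome 7, 103812524 to 103813996, minus strand) stood at 244, 95.7, 75.0 and 49.7 TPM in controls. Its Myc-labelled values were 101, 189.9, 106 and 228 TPM, and both groups overlapped for each beta globin.

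Summed, the 4 globins made up 1763, 720.2, 551 and 349 TPM in the controls. They made up 726, 1398, 953 and 1578 TPM in the Myc-labelled livers. The sum therefore spanned 5.05-fold over the 8 livers, and it took between 0.0349% and 0.176% of all TPM.

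Alas2 (ENSMUSG00000025270.13, chromosome X, 150547375 to 150570638, plus strand) was far lower per length than the globins and varied less. It stood at 10.2, 6.27, 8.70 and 5.39 TPM in controls and at 9.57, 12.9, 7.25 and 15.2 TPM in Myc-labelled livers. Globin TPM per Alas2 TPM ran from 63.4 in control replicate 3 to 172 in control replicate 1. The annotated span of Apex2, a DNA repair gene on the opposite strand, covers all 23264 bases of Alas2, and the labels do not state the read strand. Apex2 itself ranged from 3.15 to 8.30 TPM. Its part in the Alas2 values was not tested.

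Slc4a1 (ENSMUSG00000006574.15, chromosome 11, 102348824 to 102366203, minus strand) was barely detected. It was listed at 0 in control replicates 2, 3 and 4 and stood at 0.175 TPM in control replicate 1. The Myc-labelled livers had 0.0883, 0.234, 0.0937 and 0.0894 TPM. Mean coverage was at most 0.746 reads per base, so differences between these values are not resolved at this depth.

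The platelet chemokines followed another order. Pf4 (ENSMUSG00000029373.7, chromosome 5, 90772435 to 90773383, plus strand) stood at 8.42, 1.79, 15.5 and 2.74 TPM in controls. Its Myc-labelled values were 16.8, 5.55, 4.31 and 8.03 TPM. The highest values came from Myc-labelled replicate 1 and control replicate 3, and the latter was second lowest of the 8 livers in summed globins. Ppbp (ENSMUSG00000029372.7, chromosome 5, 90768518 to 90770063, plus strand), the neighbouring chemokine gene, was below 1 TPM in 7 of 8 libraries. It stood at 0.0724, 0.352, 0.261 and 0.588 TPM in controls and at 0.408, 0.301, 0.629 and 1.15 TPM in Myc-labelled livers.

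**Figure D1:**
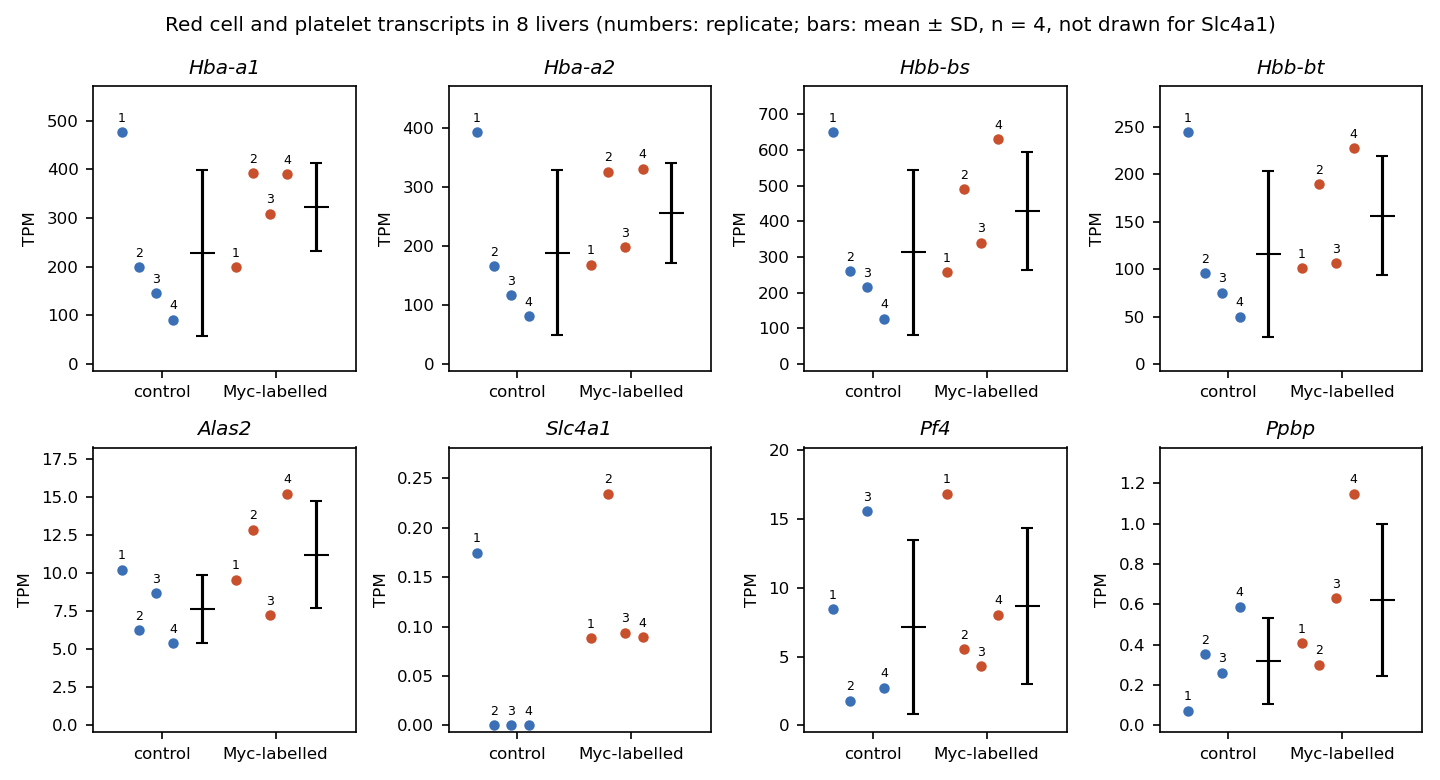
TPM of each member (vertical axis) in the 4 control and 4 Myc-labelled livers, with points numbered by replicate and bars giving mean ± SD (n = 4; not drawn for Slc4a1, listed at 0 in 3 libraries). For the globins, control replicate 1 stands above all other libraries of both groups, while Pf4 and Ppbp follow other orders.

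The division of TPM between the globin copies was nearly constant. Hba-a1 made up 53.0% to 55.4% of alpha globin TPM in 7 livers and 60.9% in Myc-labelled replicate 3. Hbb-bs made up 71.7% to 74.1% of beta globin TPM in the same 7 livers and 76.2% in Myc-labelled replicate 3. By deposited coverage, the Hba-a1 share of that library was likewise highest, at 61.8%. Coverage and TPM rest on the same assignment of reads, so this is not a separate check. The alpha genes together made up 45.7% to 51.3% of globin TPM in the same 7 livers and 53.2% in Myc-labelled replicate 3.

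**Figure D2:**
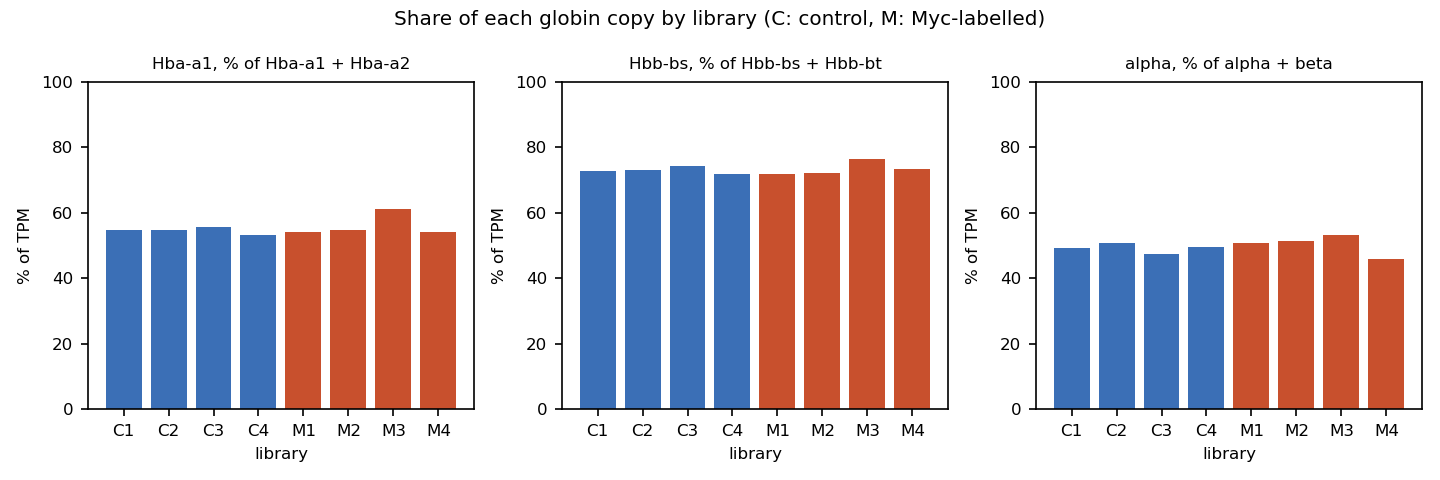
Share of TPM (vertical axis, percent) held by Hba-a1 within the alpha globins, by Hbb-bs within the beta globins and by alpha within all globins, 1 bar per library. The shares are near-level across libraries, except that Myc-labelled replicate 3 is highest in each panel. It stands at 60.9% for Hba-a1, 76.2% for Hbb-bs and 53.2% for alpha.

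The 4 globins rose and fell together over the 8 livers. Their 6 pairwise Pearson correlations on log2(TPM + 1) ran from 0.961 to 0.991 and Spearman's rho from 0.952 to 1.0 (exact permutation over pairings, two-sided, adjusted p = 0.000463 for Pearson's r in each pair, Benjamini-Hochberg over 28 member pairs). Without the 2 libraries farthest from the median of the first gene, r was 0.911 to 0.981, and with values centred on the group means it was 0.956 to 0.990. Between Hba-a1 and Hba-a2, and between Hbb-bs and Hbb-bt, shared reads can add to the correlation. The alpha and beta genes lie on different chromosomes, and Hba-a1 with Hbb-bs gave r between 0.963 and 0.989 under the 13 other settings tried.

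Alas2 followed the globins less closely. Pearson's r was 0.73 to 0.83 and rho 0.71 to 0.81, and 2 of the 4 pairs passed for r (exact permutation adjusted p = 0.0424 to 0.0812) and 0 for rho (adjusted p = 0.0554 to 0.115). Without the 2 farthest libraries r was 0.62 to 0.82. The pairs of Slc4a1 with the other red cell genes gave r = 0.68 to 0.83, of which 3 of 5 passed (exact permutation adjusted p = 0.0424 to 0.122). They rest on values at or near 0.

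No pair of Pf4 with a red cell gene passed, with r from 0.15 to 0.54 (exact permutation adjusted p = 0.296 to 0.844). Ppbp gave r from -0.23 to 0.18. The pair of platelet chemokines did not pass either, with r = -0.16 and rho = -0.31 (exact permutation adjusted p = 0.844). A correlation that misses the threshold over 8 libraries does not show that the levels are unrelated.

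**Figure D3:**
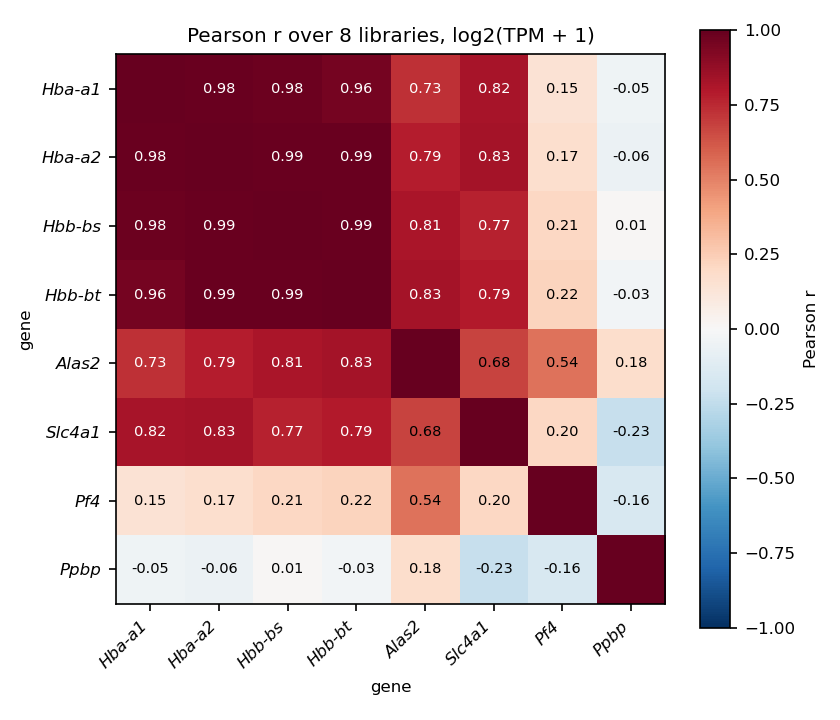
Pearson's r between each pair of members over 8 libraries on log2(TPM + 1), with red for positive and blue for negative values. The globins form a block of r from 0.96 to 0.99, Alas2 and Slc4a1 lie between 0.68 and 0.83 with the other red cell genes, and Pf4 and Ppbp stand outside it.

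**Figure D4:**
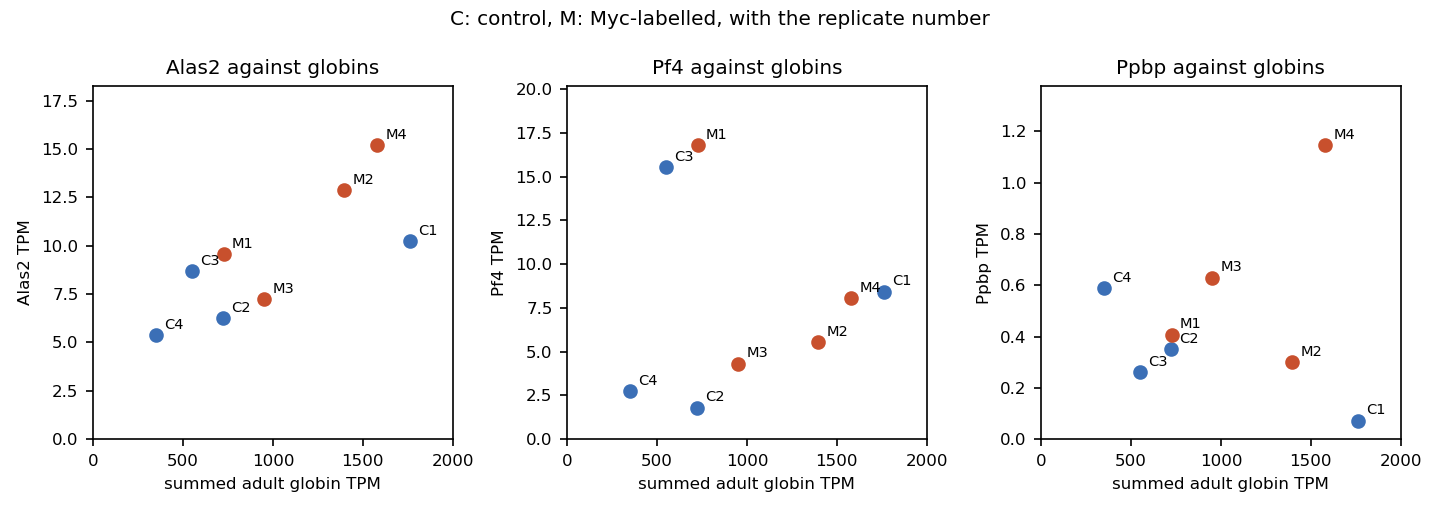
TPM of Alas2, Pf4 and Ppbp (vertical axes) against summed adult globin TPM (horizontal axes), 1 point per library, coloured by group. Alas2 tends upward with the globins, whereas the highest Pf4 values, 16.8 and 15.5 TPM, are in libraries with 726 and 551 TPM of globin.

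Between the groups, all 6 members that passed the filter of a mean of at least 1 TPM had higher fitted means in the Myc-labelled livers, but none passed the test. Of all 13055 genes tested, 0.0% passed an adjusted p of 0.05 in either direction, 0 being higher and 0 lower. At an unadjusted limma p under 0.05 the share was 1.86% of all genes and 0 of the 6 members. The members' median log2 difference was 0.62 and the median over all tested genes 0.04. The groups overlapped for all 6 members, whereas 0.935% of all genes were higher without overlap.

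Hba-a1 averaged 228 ± 171 TPM in controls and 322 ± 90.7 TPM in Myc-labelled livers (SD, n = 4 each). Its log2 difference was 0.72 ± 0.45 (SE; 95% interval -0.29 to 1.73, limma adjusted p = 1.0). Hba-a2 averaged 189 ± 140 against 256 ± 84.7 TPM, Hbb-bs 313 ± 231 against 429 ± 165 TPM and Hbb-bt 116 ± 87.5 against 156 ± 62.7 TPM. These 3 genes had log2 differences of 0.60 to 0.64. The control SD exceeded the Myc-labelled SD for each globin.

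Alas2 averaged 7.65 ± 2.22 against 11.2 ± 3.52 TPM, a log2 difference of 0.49 ± 0.25 (95% interval -0.06 to 1.04, limma adjusted p = 1.0). Pf4 averaged 7.12 ± 6.33 against 8.68 ± 5.64 TPM, a log2 difference of 0.45 ± 0.61 (95% interval -0.95 to 1.84, limma adjusted p = 1.0). Ppbp, below the filter, averaged 0.318 ± 0.214 against 0.621 ± 0.377 TPM.

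The size of the globin difference depended on single libraries, most of all on 2 controls. Without control replicate 1 the members' median log2 difference was 1.06, and without control replicate 4 it was 0.30. Without Myc-labelled replicate 1 it was 0.79, and without Myc-labelled replicate 4 it was 0.42. Without control replicate 1, 5 of the 6 had an unadjusted limma p under 0.05, all of them higher, against 2.1% of all genes in either direction and 1.19% in that direction, and Hba-a1 differed by 1.17 ± 0.32. Hba-a2 and Hbb-bt then no longer overlapped between groups, as did 1.98% of all genes in that direction. Control replicate 1 was the highest of all libraries for each globin and the highest control for Alas2. Leaving it out could therefore only raise the differences of these 5 genes. The globins moved together over the libraries, so they do not count as separate results. None passed after adjustment (limma adjusted p = 1.0). With libraries weighted by their estimated precision (array weights), the median was 1.08 and 5 of the 6, all higher, had an unadjusted limma p under 0.05, against 4.5% of all genes in either direction and 2.96% in that direction. None passed after adjustment there either (smallest limma adjusted p = 0.986). The weight was 0.588 for control replicate 1, against 3.318 for Myc-labelled replicate 2, the highest, and 0.42 for Myc-labelled replicate 3, the lowest. That fit is thus not independent of the one without control replicate 1.

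**Figure D5:**
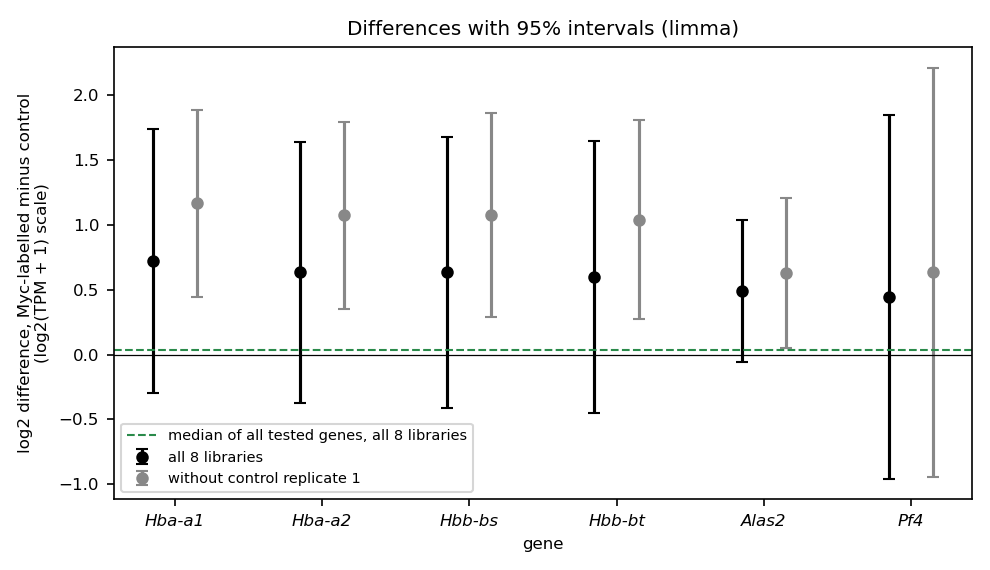
Log2 difference between Myc-labelled and control livers (vertical axis, limma on log2(TPM + 1)) for the 6 tested members, with 95% intervals, over all 8 libraries (black) and without control replicate 1 (grey). With all libraries every interval spans 0, and without control replicate 1 the intervals of the globins and Alas2 lie above 0. Control replicate 1 held the most globin of all libraries, so leaving it out could only raise the globin differences.

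Other genes of the red cell programme ranged from 0 to well above Alas2. The list of other globin-related genes held 7 embryonic and minor globins, all found, of which 6 were at 0 in all libraries. The other 3 names on it, Hbb-b1, Hbb-b2 and the alpha globin chaperone Ahsp, matched no gene name in the tables. Among erythroid transcription factors, Gata1 and Gfi1b, which drive erythroid and megakaryocytic differentiation, were listed at 0 in 7 of 8 libraries. The highest members of that list are also expressed outside erythroid cells: the adaptor Ldb1 at 83.4 ± 32.2 against 79.6 ± 28.4 TPM, the GATA cofactor Zfpm1 at 20.03 ± 7.31 against 19.9 ± 1.96 TPM, and the transferrin receptor Tfrc at 10.8 ± 2.01 against 10.6 ± 2.51 TPM. Klf1, an activator of beta globin, stood at 7.79 ± 2.68 TPM in controls and 6.42 ± 2.98 TPM in Myc-labelled livers. In this list 6 of 11 genes were tested, 2 with higher and 4 with lower fitted means, a median of -0.06 and none past the threshold.

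Genes of the red cell membrane and skeleton were mostly low, with 13 of 16 under 1 TPM in every library, 1 of which (Kel) was at 0 in all 8. The 3 tested ones are also expressed outside red cells: the water channel Aqp1 at 61.4 ± 11.1 against 63.1 ± 16.4 TPM, Epb41 at 61.1 ± 19.9 against 62.7 ± 12.8 TPM, and Gypc at 5.66 ± 1.23 against 5.42 ± 2.92 TPM. Of 9 reticulocyte and late erythroid genes tested, 5 had higher and 4 lower fitted means, with a median of 0.05, and none passed, for example the mitophagy receptor Bnip3l at 52.6 ± 10.2 against 49.2 ± 3.96 TPM. Hemgn and Cldn13 were at 0 in all libraries.

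The other haem synthesis genes ranged in mean level from below Alas2, for the mitochondrial transporter Abcb10 at 7.34 TPM over all libraries against 9.44 TPM for Alas2, to far above it. Alas1, the highest of them, stood at 290 ± 39.3 TPM in controls and 365 ± 78.9 TPM in Myc-labelled livers. The porphyrin transporter Tmem14c stood at 139 ± 21.1 against 145 ± 34.7 TPM and Alad, the second enzyme of the pathway, at 87.5 ± 17.2 against 94.2 ± 25.3 TPM. Of 12 haem synthesis genes tested, 8 had higher and 4 lower fitted means, with a median log2 difference of 0.05 and none past the threshold. Haptoglobin (Hp) and haemopexin (Hpx), plasma proteins that bind free haemoglobin and haem, stood at 20620 ± 4102 against 19988 ± 3512 TPM and at 21233 ± 5758 against 22788 ± 5423 TPM. In the haemoglobin and haem clearance list 6 genes had higher and 8 lower fitted means, with a median of -0.03 and none past the threshold.

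Of 26 platelet and megakaryocyte genes, 14 were under 1 TPM in every library and 11 were tested, 6 with higher and 5 with lower fitted means, a median of 0.02 and none past the threshold. Clec1b, the platelet receptor for podoplanin, which Kupffer cells also carry, stood at 26.5 ± 5.47 against 23.2 ± 6.83 TPM. The integrin subunit Itgb3 stood at 5.58 ± 0.492 against 4.75 ± 1.95 TPM. The myosin kinase Mylk stood at 14.8 ± 2.74 against 14.5 ± 4.03 TPM and Gng11 at 5.33 ± 1.79 against 7.90 ± 3.59 TPM. Tubb1, the beta tubulin of platelets, was at 0 in 4 of 8 libraries. Selp stood at 1.76 ± 0.351 against 3.78 ± 0.695 TPM, without overlap, as 0.935% of all genes were in that direction. It was the 1 tested gene of this list with an unadjusted limma p under 0.05, against 1.86% of all genes.

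No marker of other blood cells or of liver macrophages passed the test, and 58.0% of all tested genes had higher fitted means in Myc-labelled livers. Neutrophil markers had higher fitted means in 8 of 8 tested, with a median log2 difference of 0.64 and S100a9 at 13.2 ± 12.7 against 33.6 ± 28.2 TPM. Monocyte markers had higher fitted means in 2 and lower in 3 of 5 tested, with a median of -0.04. Markers of Kupffer cells, the resident macrophages of the liver, had lower fitted means in 11 of 11 tested, with a median of -0.44. The highest of them, Marco, stood at 275 ± 248 against 161 ± 44.9 TPM, and the complement gene C1qc at 166 ± 21.4 against 124 ± 31.0 TPM. B cell and T cell markers had no gene with a mean of 1 TPM. The part of these cells in the globin values was not tested.

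Across libraries, Hbb-bs was correlated with 15 measures: aligned bases, genes detected and the means of the tested genes of other lists. The lists of members were left out, as were those of B cells, T cells and embryonic and minor globins, which had no tested gene. None of the 15 passed for Pearson's r (exact permutation, smallest adjusted p = 0.802). The r farthest from 0 was -0.62 (rho = -0.74), with the mean of the tested red cell membrane and skeleton genes, and did not pass. Its r was 0.23 with aligned bases, 0.36 with neutrophil and -0.54 with Kupffer cell markers. Of 44 single genes of the erythroid and platelet lists, 0 passed. Fbxo7, a ubiquitin ligase subunit with a role in red cell maturation, had r = 0.72 (exact permutation adjusted p = 0.638). Pf4 passed with none of the 15 measures (exact permutation, smallest adjusted p = 0.488).

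The genes whose levels were most like the mean of the 6 red cell genes, out of 13049 ranked over 8 libraries, were Gin1 (r = 0.96), Zfp622 (r = 0.94), Gm6204 (r = 0.93), Gm10232 and Gm13414 (r = 0.91 each), mt-Tg and Yeats4 (r = 0.90 each) and Siah1b (r = 0.89). For Pf4 they were Tmem106c (r = 0.97), Casd1 (r = 0.96), Zfp697, Abcg2 and Gm8242 (r = 0.95 each) and Crnkl1 (r = 0.94). For Ppbp they were Cldn14 (r = 0.94), Rnf215 and Nol12 (r = 0.93 each), Spred2 and Dusp16 (r = 0.92 each) and Gm7367 (r = 0.91). These are the extremes of a ranking over 8 libraries that share depth and tissue, and are given as a description.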

How the data were processed

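Liver RNA of 8 mice was sequenced, with libraries made from total RNA by an mRNA kit, per the labels' protocols. The submitters' processing notes name HISAT2, StringTie and the mm10 build, without versions. The authors deposited TPM, which adds up to 1000000 in every library. The deposited files also hold FPKM and coverage, a signal per base not scaled for depth. Without read counts, depth was derived from the ratio of coverage to FPKM.

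Repeated gene ID rows, 10 to 15 per library, were summed. Group differences on log2(TPM + 1), a scale that understates changes of low genes, were fitted in limma 3.58.1 under R 4.3.3 with its trend and robust options. The two-sided tests covered the 13055 genes averaging 1 TPM or more, and Benjamini-Hochberg adjustment at 0.05 ran over all of them. Correlations were tested by exact permutation over 40320 pairings (Python 3.11.15, numpy 2.4.6, scipy 1.17.1). The labels describe each library as a separate mouse.

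The members, the 20 gene lists and the tests were chosen with earlier results of these data known. The rule for named genes took the members, up to 4 genes per list by mean TPM, and the genes most like the red cell mean (8), Pf4 (6) and Ppbp (6). Gata1, Gfi1b, Kel, Abcb10, Hemgn, Cldn13, Tubb1, Selp, Fbxo7, Apex2 and Myc fall outside it and were named after their values were seen. Values of some list genes are not reported here. An exact test of the summed globins was planned. Its p is not given, since the sum is a score over chosen members. The relations with library measures and list genes were not planned. They were first computed for the summed globins and then, after those results were seen, for Hbb-bs alone, and 0 of 15 and 0 of 44 passed either way. Alternatives covered the pseudocount, filter, scaling, FPKM, variance model, array weights, a replicate block, an Xist covariate and leaving out each library.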

Additional observations from a re-analysis of the deposited data

Results flagged for a closer look

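In groups of 4, the highest or lowest library was compared with the others by Dixon's ratio, which by chance marks about 1 in 20 groups. Of 26 groups checked, 3 were marked. Hba-a1 made up 60.9% of alpha globin TPM in Myc-labelled replicate 3, while the rest of its group lay between 54.1% and 54.6%. Slc4a1 stood at 0.175 TPM in control replicate 1 and at 0 in the other controls. It stood at 0.234 TPM in Myc-labelled replicate 2, against 0.0883 to 0.0937 TPM in the others, and all of these are near the detection limit.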

How the results depend on the processing

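Under 19 alternatives the 6 tested members kept a positive log2 difference and none passed an adjusted p of 0.05. Genes past the threshold over the whole table numbered 0 under all but array weights, which gave 1, and 0 whichever library was left out. Leaving out 1 library moved the members' median log2 difference between 0.30 and 1.06 and the log2 difference of summed globins between 0.32 and 1.10. With array weights the median was 1.08, and 5 of the 6 members had an unadjusted limma p under 0.05. So did 5 without control replicate 1 and 1 without Myc-labelled replicate 3, against 0 with all libraries weighted equally. Leaving out control replicate 1, the library with the most globin, could only raise the globin differences. At an unadjusted p under 0.05, limma gave 165 higher and 78 lower genes, 153 and 180 with median-of-ratios scaling, 166 and 152 with quantile normalization, 236 and 70 with FPKM, 429 and 214 of 27386 genes without the filter, 93 and 42 of 8876 genes under a filter of 5 TPM, 387 and 200 with array weights, 574 and 72 without Myc-labelled replicate 3, and 88 and 184 without Myc-labelled replicate 1, where 41.6% of genes were higher against 58.0% over all libraries. The cause was not tested. Same-numbered libraries correlated at -0.06 to 0.13 and differently numbered ones at -0.21 to 0.22, which does not settle whether the numbers mark pairs. The labels state no pairing, so the replicate numbers were not taken as pairs. With the replicate block limma called 0 genes, with 141 higher and 90 lower unadjusted, and the log2 difference of summed globins was 0.66. The correlation of Hba-a1 with Pf4 fell to -0.22 without control replicate 4. That of Hba-a1 with Ppbp ran from -0.52 without Myc-labelled replicate 4 to 0.32 without control replicate 1. Depth limits Slc4a1 and Ppbp most among the members.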
